A study of Rattus norvegicus with 15 samples.

Results

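Chemokines and their receptors were taken as every gene of the deposited table whose symbol starts with Ccl, Cxcl, Xcl, Cx3cl, Ccr, Cxcr, Xcr or Cx3cr followed by a digit. This gave 53 of the 21576 genes in the table, 34 ligands and 19 receptors, measured by RNA sequencing in the livers of male Sprague-Dawley rats. There were 3 groups of 5 libraries. ZXD rats ate an irradiated feed of 66% base forage with 16.7% sucrose, 8.3% yolk, 7% lard, 2% cholesterol, 0.3% sodium cholate and 0.2% propylthiouracil, and after the first 4 weeks were dosed orally for 4 weeks with Zexie Decoction, 2.2 g per kg daily. HFD rats ate the same feed and received saline over those weeks. CON rats ate normal chow. ZXD and HFD together are called the fed groups below. Zexie Decoction is a herbal preparation of Alisma and Atractylodes rhizomes, and propylthiouracil blocks thyroid hormone synthesis, so both fed groups carried that drug together with the fat, cholesterol and bile salt. Each group held 10 rats. The labels do not say whether each library came from 1 rat, so p-values measure the spread between these libraries, which may be partly technical. The labels give no age for the animals.

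Chemokines are small secreted proteins that bind G protein-coupled receptors on leukocytes and direct where those cells move. The CC, CXC, XC and CX3C families are named for the spacing of conserved cysteines. In the liver, hepatocytes, Kupffer cells, sinusoidal endothelium and stellate cells are known sources of ligands, while most of the receptors mark infiltrating or resident leukocytes. In whole tissue a higher transcript level can come from more cells or from more RNA per cell, and these cannot be told apart in bulk liver RNA.

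Levels are given as CPM, read counts relative to the TMM-scaled library size, and library values are listed from replicate 1 to 5 of each group. Total counts lay between 12552449 and 14228052 per library, and 3 counts corresponded to 0.183 to 0.285 CPM. Of the 53 genes, 33 passed the filter on low counts, 22 ligands and 11 receptors, and 20 did not. The filter passes a gene that is high in just 1 group, so the 33 are not a sample of the family. Calls required an adjusted p below 0.05 in edgeR's quasi-likelihood test, adjusted by Benjamini-Hochberg over all 13163 genes tested. All edgeR p-values and fold changes below come from that fit, and HFD versus CON and ZXD versus CON share the CON libraries.

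Hepatocyte markers were present in all 15 libraries, with summed levels of 45718 to 92319 CPM in ZXD, 63682 to 94618 CPM in HFD and 139301 to 172977 CPM in CON. Albumin had the highest mean of these in each group, at 33771 CPM in ZXD, 39380 CPM in HFD and 104282 CPM in CON. Of the 7 hepatocyte markers, 3 were called lower in ZXD versus CON and 2 in HFD versus CON, none higher, while Fgb averaged 7333 CPM in ZXD, 7710 CPM in HFD and 6445 CPM in CON. All 11 macrophage markers were detected, with summed levels of 571 to 2898 CPM in ZXD, 386 to 1077 CPM in HFD and 230.2 to 617 CPM in CON. The 11 T and NK cell markers summed to 8.11 to 98.7 CPM in ZXD, 10.1 to 58.3 CPM in HFD and 3.61 to 7.09 CPM in CON. Among these, Gzmb was at 0 in all 15 libraries and Cd8b in all 5 CON libraries. The 9 neutrophil markers summed to 2.57 to 30.5 CPM in ZXD, 2.79 to 14.2 CPM in HFD and 0.570 to 3.77 CPM in CON, with Mpo at 0 in all 15 libraries. Csf3r had the highest mean of these in each group, at 8.95 CPM in ZXD, 4.82 CPM in HFD and 1.05 CPM in CON. Ngp averaged 0.556 CPM in ZXD, 0.331 CPM in HFD and 0.297 CPM in CON. The 5 B cell markers summed to 3.98 to 16.3 CPM in ZXD, 3.18 to 10.4 CPM in HFD and 0.475 to 2.96 CPM in CON. The 6 sinusoidal endothelium markers summed to 395 to 559 CPM in ZXD, 78.5 to 324 CPM in HFD and 66.7 to 339 CPM in CON. The 6 cholangiocyte markers summed to 39.4 to 83.2 CPM in ZXD, 49.98 to 93.9 CPM in HFD and 17.9 to 28.1 CPM in CON. The endothelial sums lay higher in every ZXD library than in any HFD or CON library. The B cell, T and NK cell and cholangiocyte sums lay higher in every ZXD and HFD library than in any CON library. The macrophage and neutrophil sums of both fed groups lay mostly above CON and overlapped it. The 5 dendritic cell markers summed to 13.9 to 30.2 CPM in ZXD, 12.7 to 22.6 CPM in HFD and 8.65 to 16.7 CPM in CON, with overlapping groups. The leukocyte sums thus mostly lay in the direction of most chemokine results below. The endothelial sum was 559 CPM in ZXD 1, 546 CPM in ZXD 2 and 395 CPM in ZXD 4, although ZXD 4 was the highest ZXD library for 21 of the 33 tested chemokine genes. The 8 stellate markers summed to 293 to 662 CPM in ZXD, 178 to 644 CPM in HFD and 252 to 482 CPM in CON, with overlapping groups. The part of all these levels in the chemokine results was not tested.

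In HFD livers, 9 of the 33 tested chemokine genes rose and 1 fell relative to CON, and 23 did not pass the test. The background over all tested genes was 10.0% higher and 10.9% lower, against 27.3% higher among the 33. The genes that rose were the ligands Cxcl1, Ccl2, Cxcl9, Cx3cl1, Cxcl16, Ccl21, Cxcl10 and Xcl1 and the receptor Cxcr3, and the gene that fell was Cxcl12. In ZXD livers, 19 of the 33 rose and 1 fell relative to CON, where the background was 17.9% higher and 14.8% lower. Neither the 33 genes nor any other gene was called between ZXD and HFD by edgeR, a background of 0.00% in each direction. The median log2 fold change of the 33 was 2.03 in ZXD versus CON, 0.59 in ZXD versus HFD and 1.27 in HFD versus CON, and that of all tested genes was 0.03, 0.02 and 0.02 in the same comparisons. Fold changes lay above 0 for 29 of the 33 in ZXD versus CON, 28 in ZXD versus HFD and 28 in HFD versus CON, where the share over all tested genes was 52.2%, 52.1% and 51.4%.

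Single libraries bore on these counts. In HFD versus CON the 9 higher calls became 4 without CON 3, without CON 5 or without HFD 2, and 5 without CON 4 or without HFD 5. In ZXD versus CON the 19 higher calls became 11 without ZXD 4 and 12 without CON 3, and the count of 1 lower became 0 without CON 1, CON 4, ZXD 1 or ZXD 3. The tool bore on them too: limma voom called 5 higher in ZXD versus CON and 0 in HFD versus CON, and voom with quality weights called 15 higher in ZXD versus CON and 4 in HFD versus CON. Among the 5 ZXD libraries, ZXD 4 was the highest for 21 of the 33 genes and ZXD 3 was among the top 2 for 26. Among the HFD libraries, HFD 5 was in the top 2 for 23 genes and HFD 2 for 21.

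**Figure D1:**
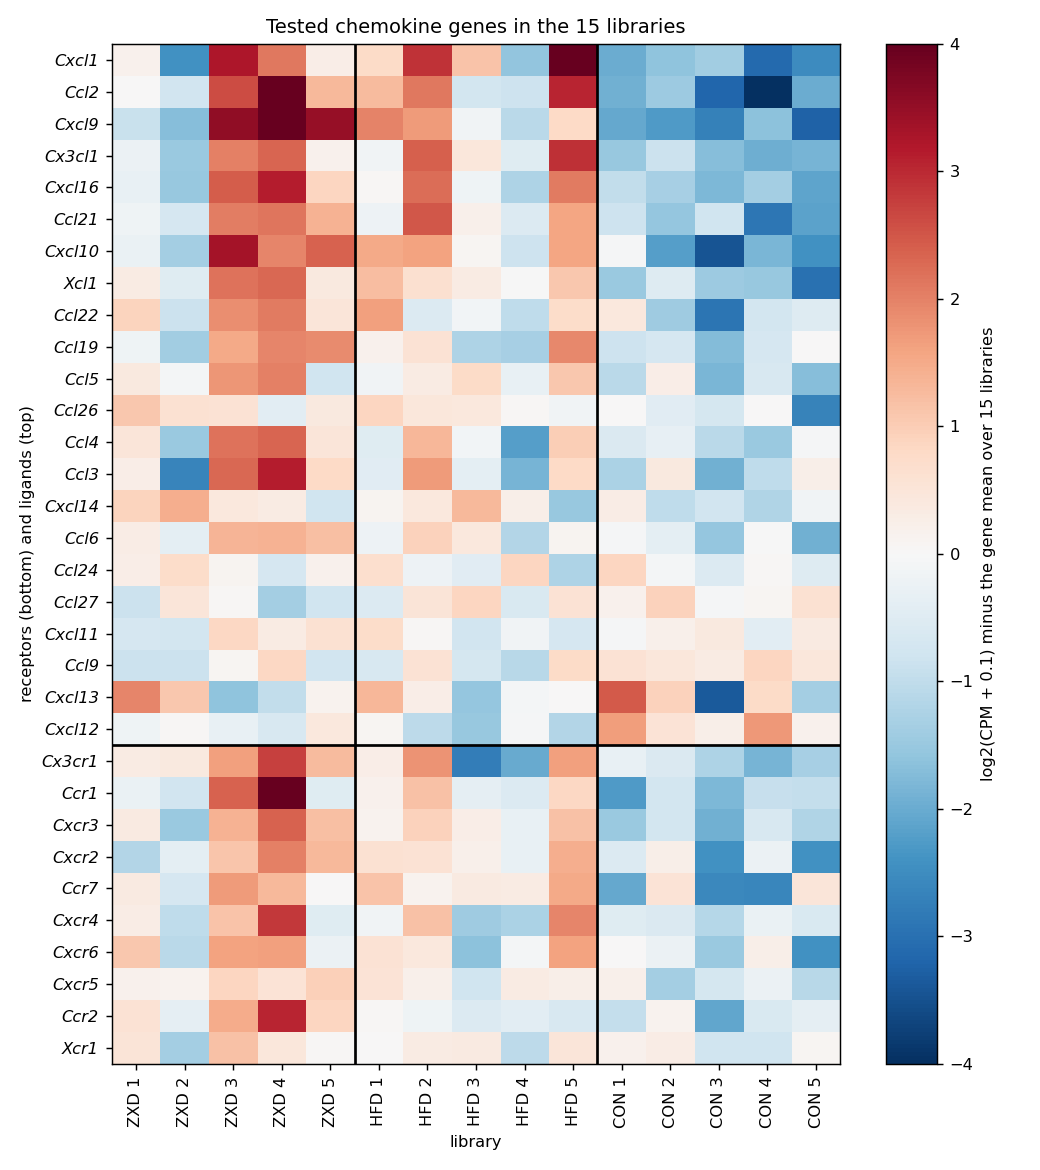
Chemokine and receptor genes described here that passed the filter on low counts (rows) in the 15 libraries (columns, ZXD then HFD then CON), coloured by log2(CPM + 0.1) minus the gene's mean over the 15 libraries, with colours capped at 4 in both directions. Red (high) cells gather in ZXD 3 and ZXD 4 and in HFD 2 and HFD 5, most CON cells are blue (low), and Cxcl12 is red in CON.

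CXCR3 ligands are induced by interferon gamma and attract activated T and NK cells. Cxcl9, Cxcl10 and Cxcl11 lie next to each other on chromosome 14 in the RefSeq gene table of GRCr8. Their promoters, together with that of the neutrophil attractant Cxcl1, are shown because these neighbouring genes differed in how they moved. Each runs from 250 bases before to 50 bases after the start in RefSeq's GRCr8, 5′ to 3′ on the gene's strand. Capitals mark matches, on either strand, to the kappa B motif (GGG, any 3 bases, TTCC), the interferon-stimulated response element (GAAA, any 2 bases, GAAA) or the gamma-activated site (TTC, any 3 bases, GAA). The Cxcl9 window is chr14:16006916-16007215 on the plus strand, that of Cxcl10 is chr14:15988816-15989115 on the plus strand, that of Cxcl11 is chr14:15973478-15973777 on the plus strand and that of Cxcl1 is chr14:17479272-17479571 on the minus strand.
Cxcl9: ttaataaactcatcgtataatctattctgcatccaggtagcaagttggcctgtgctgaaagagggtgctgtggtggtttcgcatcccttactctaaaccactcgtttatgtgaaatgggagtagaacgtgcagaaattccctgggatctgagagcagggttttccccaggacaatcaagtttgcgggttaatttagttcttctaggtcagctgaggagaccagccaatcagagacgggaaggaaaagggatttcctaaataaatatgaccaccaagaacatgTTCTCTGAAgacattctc
Cxcl10: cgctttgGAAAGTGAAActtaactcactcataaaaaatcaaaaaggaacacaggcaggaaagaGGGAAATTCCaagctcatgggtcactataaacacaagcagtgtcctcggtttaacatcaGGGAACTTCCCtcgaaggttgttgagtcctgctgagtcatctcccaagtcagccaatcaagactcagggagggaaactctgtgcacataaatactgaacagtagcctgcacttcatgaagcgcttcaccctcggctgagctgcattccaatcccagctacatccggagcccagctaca
Cxcl11: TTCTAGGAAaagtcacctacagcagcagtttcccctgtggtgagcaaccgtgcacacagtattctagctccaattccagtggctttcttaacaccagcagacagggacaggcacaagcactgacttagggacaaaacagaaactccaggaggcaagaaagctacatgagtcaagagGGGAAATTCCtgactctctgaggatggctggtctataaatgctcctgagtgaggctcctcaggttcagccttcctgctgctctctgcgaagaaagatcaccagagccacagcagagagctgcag
Cxcl1: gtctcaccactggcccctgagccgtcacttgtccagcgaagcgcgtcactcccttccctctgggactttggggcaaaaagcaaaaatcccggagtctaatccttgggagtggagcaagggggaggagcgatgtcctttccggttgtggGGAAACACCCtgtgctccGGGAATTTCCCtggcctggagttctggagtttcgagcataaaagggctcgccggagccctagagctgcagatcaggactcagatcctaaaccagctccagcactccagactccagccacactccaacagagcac
Cxcl9 held 1 gamma-activated site match, 32 bases after the start. Cxcl10 held 1 response element match at -243 and 3 kappa B matches, at -187, -128 and -127, the last 2 of which overlap on opposite strands. Cxcl11 held a gamma-activated site match at -250 and a kappa B match at -74. Cxcl1 held 3 kappa B matches, at -102, -84 and -83, the last 2 overlapping on opposite strands. Of the 53 genes, 40 matched a promoter in the table. The kappa B letters occurred in 10 of these 40 (25.0%), against 5.37% of all 33469 promoters. The response element letters occurred in 2 of 40 (5.0%), against 3.92%, and the gamma-activated site letters in 6 of 40 (15%), against 8.87%. A match of letters is a description and says nothing about binding in these livers.

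Cxcl9 had 28.2, 15.9, 611, 968 and 586 CPM in the ZXD libraries, 206, 173, 47.5, 24.7 and 90.8 CPM in the HFD libraries and 12.7, 10.8, 7.98, 16.8 and 5.54 CPM in the CON libraries. All 5 HFD libraries lay above every CON library, and ZXD was split, with 3 libraries above every HFD library and 1, ZXD 2, below them all. Cxcl9 rose in HFD versus CON (log2 fold change 3.33, SE 0.94, adjusted p = 0.0231 by edgeR) and in ZXD versus CON (log2 fold change 5.36, SE 1.02, adjusted p = 0.00234). The HFD call was lost without CON 3, CON 5 or HFD 2, and the ZXD call stood without each single library. Between ZXD and HFD the log2 fold change was 2.03 with an adjusted p of 0.271 by edgeR.

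Cxcl10 had 11.1, 5.22, 138, 52.9 and 69.3 CPM in ZXD, 39.1, 41.7, 14.4, 7.57 and 40.6 CPM in HFD and 13.2, 2.85, 1.14, 3.72 and 2.47 CPM in CON. CON 1, at 13.2 CPM, overlapped both fed groups, and the other 4 CON libraries lay below every HFD and every ZXD library. Cxcl10 rose in HFD versus CON (log2 fold change 2.61, SE 0.84, adjusted p = 0.0394 by edgeR), a call lost without any 1 of CON 2 to 5, HFD 1, HFD 2 or HFD 5. It also rose in ZXD versus CON (log2 fold change 3.56, SE 0.86, adjusted p = 0.00743), which stood without each single library. In ZXD versus HFD the log2 fold change was 0.95 (adjusted p = 0.530 by edgeR) and 0.27 without ZXD 3.

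Cxcl11, the neighbour of both, had 16.1, 15.4, 46.1, 32.04 and 39.0 CPM in ZXD, 42.5, 26.5, 14.9, 23.0 and 16.0 CPM in HFD and 24.9, 29.8, 33.3, 19.2 and 32.8 CPM in CON. The 3 groups overlapped, and Cxcl11 passed no test, with a log2 fold change of -0.19 in HFD versus CON that was 0.23 on library totals. Cxcl10 and Cxcl11 both overlap Art3 on the opposite strand in the deposited coordinates, whose genome build is not given. Strand use in the counting is not given either, but Art3 averaged 1.06 CPM in ZXD, 0.957 CPM in HFD and 0.913 CPM in CON.

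Cxcr3, the receptor shared by these ligands on activated T and NK cells, had 2.20, 0.546, 4.61, 9.15 and 4.06 CPM in ZXD, 1.88, 3.28, 2.07, 1.36 and 3.93 CPM in HFD and 0.538, 0.981, 0.380, 1.06 and 0.681 CPM in CON. Every HFD library exceeded every CON library, and ZXD 2 fell among the CON values. Cxcr3 rose in HFD versus CON (log2 fold change 1.76, SE 0.58, adjusted p = 0.0422 by edgeR), a call kept in 5 of the 15 fits that each leave out 1 library (lost without any CON library, HFD 2, HFD 3, HFD 5, ZXD 3 or ZXD 5). It rose in ZXD versus CON (log2 fold change 2.48, SE 0.58, adjusted p = 0.00613), which stood in all 15.

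**Figure D2:**
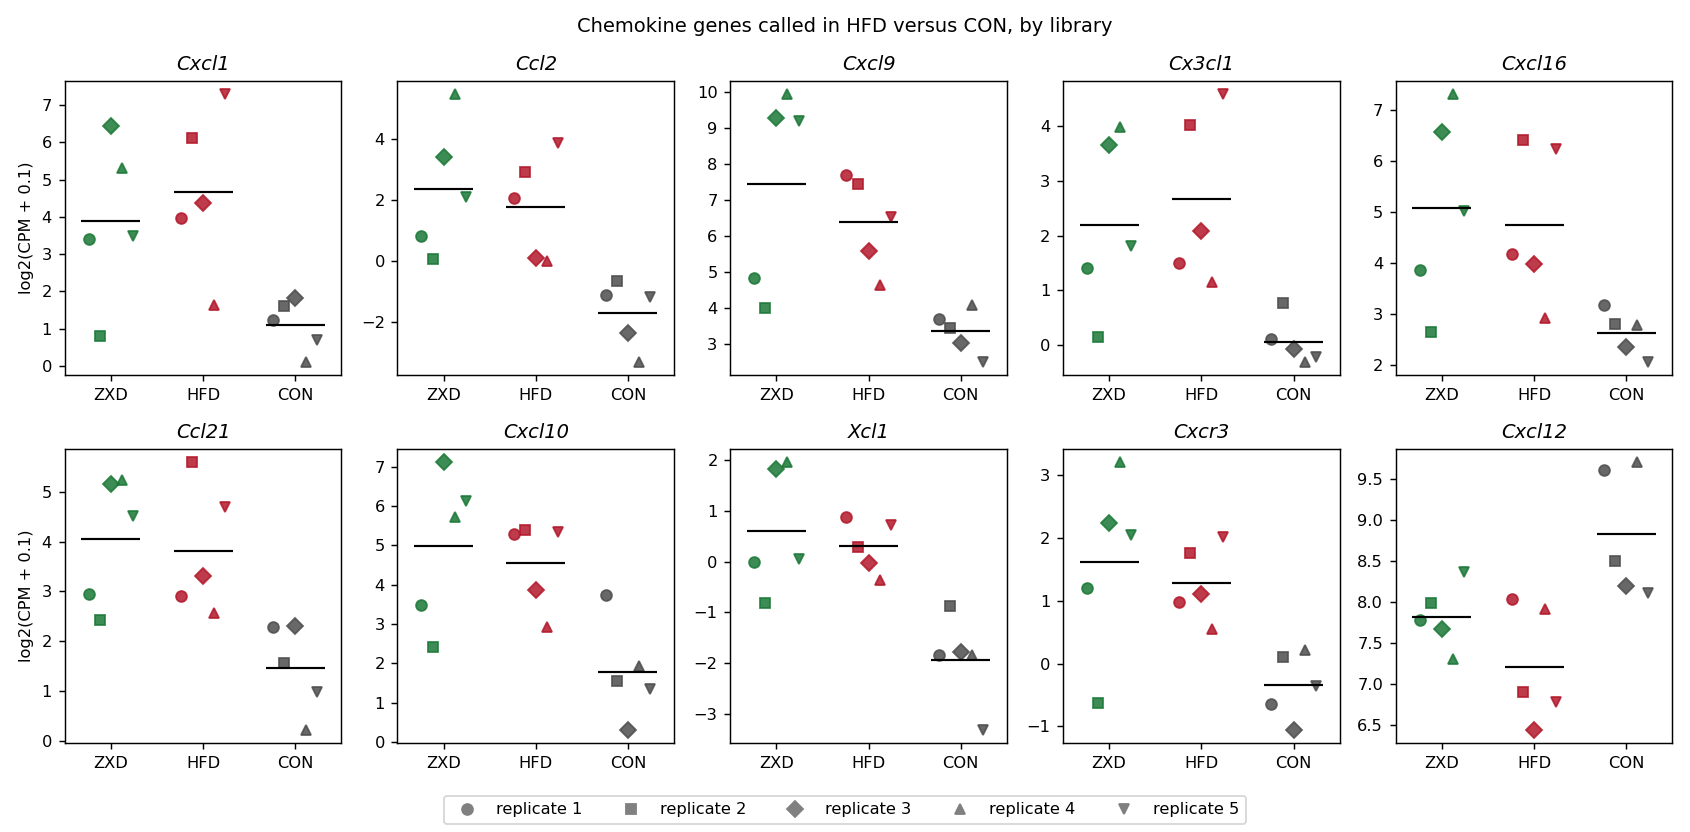
Level as log2(CPM + 0.1) on the vertical axis in each library of the 10 genes called in HFD versus CON, with ZXD, HFD and CON from left to right in each panel and a bar at the group mean of the log values. Cxcl12 is lower in HFD than in CON and the other 9 genes are higher, and the marker shapes show which replicate each point is.

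The ELR CXC ligands attract neutrophils through Cxcr1 and Cxcr2. Cxcl1 had 10.5, 1.64, 86.7, 39.9 and 11.1 CPM in ZXD, 15.7, 68.7, 20.5, 2.999 and 156 CPM in HFD and 2.24, 2.94, 3.42, 0.975 and 1.53 CPM in CON. HFD 4 and ZXD 2 lay within the CON range, and the other fed libraries lay above it. Cxcl1 rose in HFD versus CON (log2 fold change 4.57, SE 1.10, adjusted p = 0.0106 by edgeR), which stood without each single library. In ZXD versus CON it also rose (log2 fold change 3.75, SE 1.07, adjusted p = 0.0164), with an adjusted p of 0.0506 by edgeR without ZXD 3. In ZXD versus HFD its log2 fold change was -0.82 (adjusted p = 0.656 by edgeR), and this turned to 0.15 without HFD 5.

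Cxcl2, Cxcl3 and Cxcl6, which lie with Cxcl1 on chromosome 14, did not pass the filter. Cxcl2 had 0, 2, 25, 96 and 1 counts in ZXD, 5, 23, 4, 2 and 50 counts in HFD and 0, 1, 0, 0 and 3 counts in CON. Its highest libraries were ZXD 3, ZXD 4, HFD 2 and HFD 5, which were also the highest 2 of their groups for Cxcl1. Cxcl3 summed to 17 counts in ZXD, 14 in HFD and 0 in CON. Cxcl6 summed to 16 counts in ZXD, 49 in HFD and 4 in CON. Cxcl1, Cxcl2 and Cxcl3 are close in sequence, so how reads were divided among them is uncertain.

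Cxcr2 had 0.138, 0.312, 1.05, 2.08 and 1.23 CPM in ZXD, 0.712, 0.698, 0.517, 0.341 and 1.36 CPM in HFD and 0.269, 0.535, 0, 0.355 and 0 CPM in CON. The groups overlapped, with an adjusted p of 0.166 in HFD versus CON and 0.0674 in ZXD versus CON by edgeR. Cxcr1 summed to 3 counts in ZXD, 10 in HFD and 0 in CON.

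Cxcl12, the homeostatic ligand of Cxcr4 made by stromal and endothelial cells, was the 1 gene of the 33 called lower. It had 221, 254, 204, 159 and 330.1 CPM in ZXD, 263, 119, 87.0, 241 and 110.1 CPM in HFD and 786, 362, 295, 836 and 277 CPM in CON. Every HFD library lay below every CON library, while ZXD 5 lay above CON 3 and CON 5. Within CON, CON 1 and CON 4 stood well above the other 3 libraries. Cxcl12 fell in HFD versus CON (log2 fold change -1.64, SE 0.39, adjusted p = 0.00987 by edgeR), and this was called under all 24 alternatives. It fell in ZXD versus CON (log2 fold change -1.13, SE 0.38, adjusted p = 0.0354 by edgeR), a call lost without CON 1, CON 4, ZXD 1, ZXD 3 or ZXD 4. The call was also lost with library totals (log2 fold change -0.71), with a replicate block, with limma voom and with voom and quality weights (-0.56). In ZXD versus HFD the log2 fold change was 0.51 (adjusted p = 0.500 by edgeR).

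Cxcr4, which retains and guides many leukocytes and marrow-derived cells, had 4.89, 1.87, 8.74, 28.4 and 2.75 CPM in ZXD, 3.56, 9.004, 1.40, 1.57 and 15.6 CPM in HFD and 2.78, 2.59, 1.71, 3.28 and 2.56 CPM in CON. The groups overlapped and edgeR called Cxcr4 in no comparison, with an adjusted p of 0.0737 in ZXD versus CON. It was called higher there with library totals, and called with DESeq2 and without ZXD 2.

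Cxcl16, a membrane-bound ligand and scavenger receptor whose receptor Cxcr6 marks liver-resident T and NKT cells, had 14.6, 6.16, 95.4, 159 and 32.5 CPM in ZXD, 18.2, 85.01, 15.8, 7.50 and 75.8 CPM in HFD and 8.97, 6.96, 5.04, 6.83 and 4.09 CPM in CON. One library of each fed group, ZXD 2 and HFD 4, overlapped CON. Cxcl16 rose in HFD versus CON (log2 fold change 2.66, SE 0.83, adjusted p = 0.0355 by edgeR), lost without any 1 of CON 2 to 5, HFD 2 or HFD 5, and in ZXD versus CON (log2 fold change 3.27, SE 0.85, adjusted p = 0.0103), which stood without each single library. Zmynd15 overlaps Cxcl16 on the opposite strand and averaged 6.84 CPM in ZXD, 5.41 CPM in HFD and 0.265 CPM in CON, so part of its reads and those of Cxcl16 cannot be told apart. Cxcr6 averaged 0.935 ± 0.658 CPM in ZXD, 0.676 ± 0.552 CPM in HFD and 0.286 ± 0.229 CPM in CON (SD, n = 5 each) and was not called by edgeR with TMM. Among the alternatives it was called with library totals alone, higher in ZXD versus CON. It overlaps Fyco1, which averaged 102 CPM in ZXD, 59.6 CPM in HFD and 87.8 CPM in CON.

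Cx3cl1 is a membrane-anchored ligand of Cx3cr1, a receptor of monocytes and resident macrophages. Cx3cl1 had 2.55, 1.01, 12.5, 15.6 and 3.41 CPM in ZXD, 2.72, 16.1, 4.14, 2.11 and 23.7 CPM in HFD and 0.987, 1.61, 0.855, 0.709 and 0.767 CPM in CON. All HFD libraries lay above all CON libraries, and ZXD 2 lay within the CON range. Cx3cl1 rose in HFD versus CON (log2 fold change 3.30, SE 0.84, adjusted p = 0.0141 by edgeR), without exception among the fits that leave out a library, and in ZXD versus CON (log2 fold change 2.83, SE 0.83, adjusted p = 0.0184), lost without ZXD 4. Cx3cr1 had 0.757, 0.780, 2.03, 4.39 and 1.52 CPM in ZXD, 0.712, 2.23, 0, 0.0682 and 2.03 CPM in HFD and 0.449, 0.357, 0.190, 0.0887 and 0.170 CPM in CON. Its ZXD libraries all lay above the CON libraries, while HFD 3 and HFD 4 lay below them. Cx3cr1 rose in ZXD versus CON (log2 fold change 2.88, SE 0.93, adjusted p = 0.0284 by edgeR), lost without CON 2, CON 3, CON 4, CON 5 or ZXD 4, and had an adjusted p of 0.140 in HFD versus CON.

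Ccl2, the main attractant of Ccr2-bearing monocytes, had 1.65, 0.936, 10.6, 43.9 and 4.204 CPM in ZXD, 4.08, 7.40, 0.960, 0.886 and 14.4 CPM in HFD and 0.359, 0.535, 0.0950, 0 and 0.341 CPM in CON. In counts, the CON libraries held 4, 6, 1, 0 and 4, and both fed groups lay wholly above them. Ccl2 rose in HFD versus CON (log2 fold change 4.33, SE 1.23, adjusted p = 0.0242 by edgeR), lost without CON 3, CON 4, CON 5 or HFD 5. In ZXD versus CON it likewise rose (log2 fold change 5.47, SE 1.24, adjusted p = 0.00557), with a log2 fold change of 3.97 without ZXD 4. In ZXD versus HFD the log2 fold change was 1.15 (adjusted p = 0.532 by edgeR), which turned to -0.35 without ZXD 4. Ccl7, another Ccr2 ligand beside Ccl2 on chromosome 10, had 8, 0, 9, 101 and 6 counts in ZXD, 17, 20, 1, 0 and 20 counts in HFD and 0, 5, 0, 0 and 3 counts in CON and was not tested. Ccl12 summed to 4 counts in ZXD, 3 in HFD and 1 in CON.

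Ccr2 had 1.72, 0.858, 3.35, 9.95 and 2.10 CPM in ZXD, 1.17, 0.977, 0.739, 0.818 and 0.678 CPM in HFD and 0.538, 1.25, 0.190, 0.709 and 0.852 CPM in CON. HFD lay inside the CON range, and 4 of 5 ZXD libraries lay above every HFD library. Ccr2 rose in ZXD versus CON (log2 fold change 2.33, SE 0.59, adjusted p = 0.00944 by edgeR), with 1.49 without ZXD 4, and had a log2 fold change of 0.30 in HFD versus CON (adjusted p = 0.747). Ccr2 may share reads with related receptor genes, which was not tested.

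Ccr1, a receptor of monocytes and neutrophils, had 1.03, 0.702, 6.85, 31.2 and 0.870 CPM in ZXD, 1.42, 2.93, 0.960, 0.818 and 2.30 CPM in HFD and 0.179, 0.713, 0.285, 0.621 and 0.596 CPM in CON. The HFD libraries all lay above the CON libraries, yet the edgeR test was not passed (adjusted p = 0.211). Ccr1 rose in ZXD versus CON (log2 fold change 4.06, SE 1.02, adjusted p = 0.00904 by edgeR), and ZXD 4 alone stood at 31.2 CPM. Without ZXD 4 the log2 fold change was 2.28.

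Ccl3, Ccl4 and Ccl5 are inflammatory ligands released by macrophages, T cells and NK cells. Ccl5 had 3.92, 2.81, 10.4, 12.3 and 1.67 CPM in ZXD, 2.72, 3.77, 5.17, 2.39 and 6.37 CPM in HFD and 1.35, 3.57, 0.760, 1.86 and 0.852 CPM in CON. Ccl4 had 2.75, 0.624, 8.95, 10.0 and 2.75 CPM in ZXD, 1.36, 4.96, 1.77, 0.341 and 3.93 CPM in HFD and 1.26, 1.52, 0.855, 0.621 and 1.87 CPM in CON. Both overlapped between groups. Ccl5 (log2 fold change 1.89, SE 0.56, adjusted p = 0.0197 by edgeR) and Ccl4 (log2 fold change 2.03, SE 0.71, adjusted p = 0.0405 by edgeR) rose in ZXD versus CON and were not called in HFD versus CON. Their calls were lost without CON 3, CON 5, ZXD 3 or ZXD 4 for both, and for Ccl4 also without CON 1, CON 2 or CON 4. Ccl3, at 0.0780 to 9.64 CPM in ZXD, 0.204 to 3.49 CPM in HFD and 0.190 to 1.34 CPM in CON, had an adjusted p of 0.0630 in ZXD versus CON by edgeR.

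Ccl6 and Ccl9, myeloid ligands that bind Ccr1 in the mouse, were the most abundant chemokine transcripts of CON liver by length. Ccl9 had 182, 183, 347, 585 and 196 CPM in ZXD, 213, 495, 203, 153 and 567 CPM in HFD and 496, 454, 419.8, 598 and 457 CPM in CON. ZXD 1, ZXD 2, ZXD 3 and ZXD 5 and 3 HFD libraries lay below all CON libraries. Ccl9 was called in no comparison by edgeR with TMM (adjusted p = 0.185 in ZXD versus CON and 0.302 in HFD versus CON). Ccl6 had 90.1, 56.1, 189.7, 192 and 169 CPM in ZXD, 63.6, 139, 97.7, 32.7 and 78.6 CPM in HFD and 71.1, 56.3, 25.3, 73.4 and 19.3 CPM in CON. Ccl6 rose in ZXD versus CON (log2 fold change 1.51, SE 0.45, adjusted p = 0.0208 by edgeR), a call lost without CON 3 or ZXD 4, and ZXD 2 lay within the CON range.

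Levels can be compared between genes on the deposited FPKM values, which divide counts by gene length and library total. In ZXD the order by mean was Cxcl9 at 933 ± 922 FPKM, Ccl6 at 454 FPKM and Ccl9 at 267 FPKM, followed by Cxcl10 at 55.0 FPKM. Cxcl9 lay between 29.0 and 2232 FPKM there and above Ccl6 in 3 of 5 libraries. In HFD it was Ccl9 at 279.8 FPKM, Ccl6 at 260.2 FPKM, Cxcl9 at 217 FPKM and Cxcl1 at 63.1 FPKM, with Ccl9 above Ccl6 in 2 of 5 libraries. In CON it was Ccl9 at 309 FPKM, Ccl6 at 115 FPKM, Cxcl12 at 60.2 FPKM, Cxcl11 at 21.9 FPKM and Cxcl9 at 15.9 FPKM. Cxcl9 made up 33.9 ± 24.3% of the summed ligand FPKM in ZXD, with libraries between 6.56% and 54.4%, 20.3 ± 12.03% in HFD and 2.80 ± 0.567% in CON (SD, n = 5 each). Ccl9 made up 17.9 ± 10.1% in ZXD, 27.6 ± 7.08% in HFD and 57.1 ± 8.23% in CON. These shares were given no test.

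**Figure D3:**
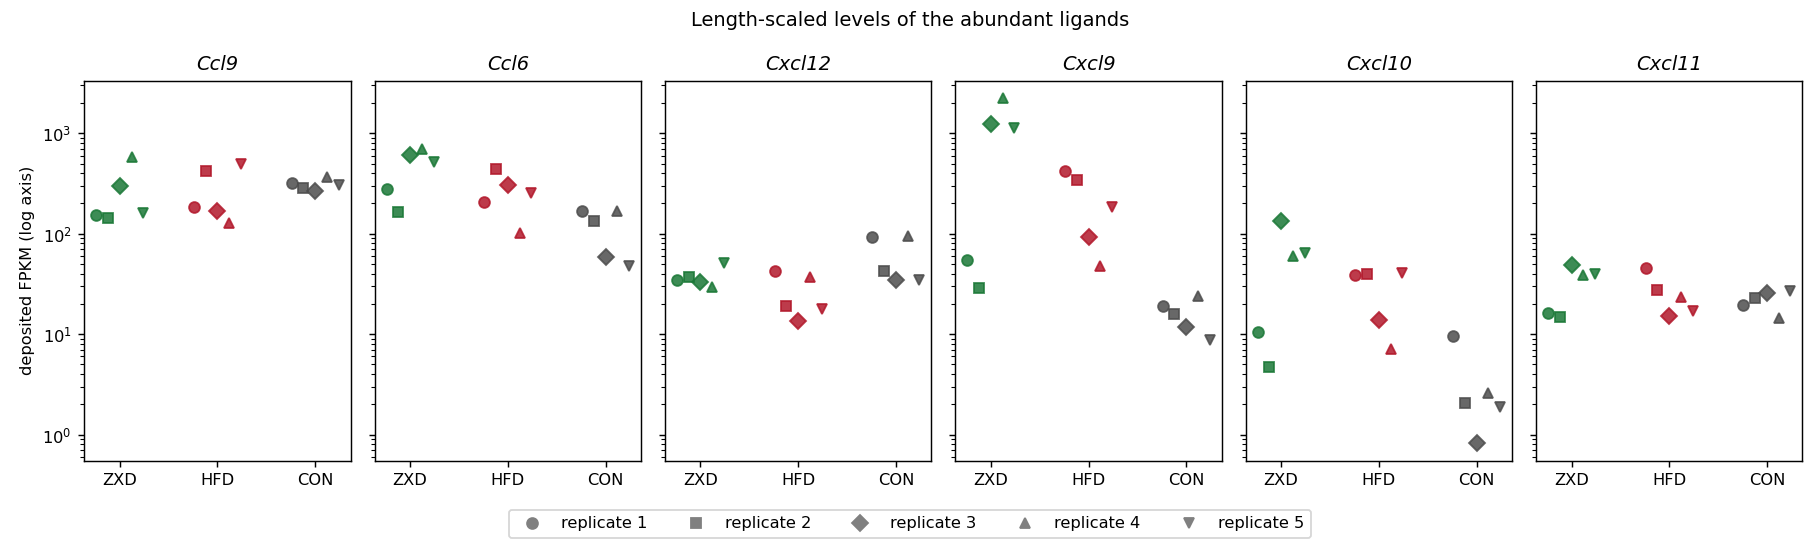
Deposited FPKM (log axis) of Ccl9, Ccl6, Cxcl12, Cxcl9, Cxcl10 and Cxcl11 in each library, with ZXD, HFD and CON from left to right. Cxcl9 has the highest mean in ZXD at 933 FPKM, with libraries far apart, and Ccl9 has the highest mean in CON at 309 FPKM.

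Ccl19 and Ccl21 guide Ccr7-bearing T cells and dendritic cells into lymphoid tissue, and Cxcl13 draws Cxcr5-bearing B cells into follicles. Ccl21 had 7.57, 5.30, 35.6, 37.8 and 22.6 CPM in ZXD, 7.38, 48.1, 9.82, 5.86 and 25.7 CPM in HFD and 4.76, 2.85, 4.85, 1.06 and 1.87 CPM in CON. Both fed groups lay wholly above CON. Ccl21 rose in HFD versus CON (log2 fold change 2.65, SE 0.70, adjusted p = 0.0171 by edgeR), lost without HFD 2, and in ZXD versus CON (log2 fold change 2.83, SE 0.70, adjusted p = 0.00862). Copies of Ccl21 can share reads, so its level is uncertain. Ccl19 had 1.03, 0.390, 3.56, 4.88 and 4.71 CPM in ZXD, 1.36, 1.81, 0.443, 0.409 and 4.81 CPM in HFD and 0.628, 0.713, 0.285, 0.709 and 1.19 CPM in CON. It rose in ZXD versus CON (log2 fold change 2.03, SE 0.74, adjusted p = 0.0479 by edgeR), a call kept in 5 of 15 fits that leave out a library (lost without any CON library, HFD 1, HFD 2, ZXD 3, ZXD 4 or ZXD 5). Ccr7 was not called by edgeR with TMM and among the alternatives was called with library totals alone, higher in ZXD versus CON, at 0.624 to 3.70 CPM in ZXD, 1.19 to 3.25 CPM in HFD and 0.0887 to 1.61 CPM in CON.

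Cxcr5 had 0.963, 0.936, 1.61, 1.28 and 1.74 CPM in ZXD, 1.29, 0.977, 0.443, 1.09 and 1.02 CPM in HFD and 0.987, 0.268, 0.475, 0.709 and 0.341 CPM in CON. Cxcr5 rose in ZXD versus CON (log2 fold change 1.22, SE 0.41, adjusted p = 0.0321 by edgeR), lost without CON 2, CON 3, CON 5, ZXD 3, ZXD 4 or ZXD 5. Cxcl13 averaged 3.08 ± 2.94 CPM in ZXD, 2.30 ± 1.60 CPM in HFD and 3.71 ± 4.29 CPM in CON (SD, n = 5 each), with overlapping groups and no call.

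Xcl1, released by activated NK and CD8 T cells, had 0.895, 0.468, 3.42, 3.78 and 0.942 CPM in ZXD, 1.75, 1.12, 0.886, 0.682 and 1.56 CPM in HFD and 0.179, 0.446, 0.190, 0.177 and 0 CPM in CON. The CON values rest on 2, 5, 2, 2 and 0 counts, and every fed library lay above them. Xcl1 rose in HFD versus CON (log2 fold change 2.55, SE 0.71, adjusted p = 0.0216 by edgeR) and in ZXD versus CON (log2 fold change 3.22, SE 0.70, adjusted p = 0.00450), both without exception among the fits that leave out a library. Xcr1, its receptor on cross-presenting dendritic cells, was at 0.858 to 5.45 CPM in ZXD, 1.09 to 3.32 CPM in HFD and 1.33 to 2.94 CPM in CON and was not called.

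Ccl22, a macrophage and dendritic cell ligand of Ccr4, had 1.31, 0.312, 2.66, 3.05 and 0.942 CPM in ZXD, 2.27, 0.419, 0.591, 0.273 and 1.15 CPM in HFD and 0.897, 0.178, 0, 0.355 and 0.426 CPM in CON. It rose in ZXD versus CON (log2 fold change 2.13, SE 0.77, adjusted p = 0.0464 by edgeR), a call kept in 4 of 15 fits that leave out a library (lost without CON 2, CON 3, CON 4, CON 5, HFD 2, HFD 3, HFD 5, ZXD 1, ZXD 3, ZXD 4 or ZXD 5). The groups overlapped, and CON 3 was at 0. Ccl17, the other Ccr4 ligand, summed to 26 counts in ZXD, 12 in HFD and 2 in CON, and Ccr4 to 13 in ZXD, 4 in HFD and 2 in CON.

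The remaining tested ligands were not called in any comparison by edgeR with TMM. With library totals, Ccl26 and Cxcl14 were called higher in ZXD versus CON and in HFD versus CON. In ZXD versus CON, Cxcl14 was also called without CON 1, HFD 5 or ZXD 5, and Ccl26 with voom and quality weights. Ccl27, which had an edgeR log2 fold change of -0.81 in ZXD versus CON, was also called with voom and quality weights. Ccl24, an eosinophil attractant, averaged 3.42 ± 1.13 CPM in ZXD, 3.26 ± 1.84 CPM in HFD and 3.09 ± 1.42 CPM in CON. Ccl26, another, averaged 0.805 ± 0.313 CPM in ZXD, 0.712 ± 0.220 CPM in HFD and 0.342 ± 0.221 CPM in CON. Cxcl14, an epithelial and stromal chemokine, averaged 13.8 ± 7.15 CPM in ZXD, 11.4 ± 6.77 CPM in HFD and 6.49 ± 3.01 CPM in CON. Ccl27 averaged 0.835 ± 0.493 CPM in ZXD, 1.35 ± 0.623 CPM in HFD and 1.46 ± 0.456 CPM in CON (SD, n = 5 each for all 4), and it overlaps Il11ra1, which averaged 20.7 CPM in ZXD, 28.3 CPM in HFD and 23.6 CPM in CON.

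Of the 20 untested genes, Ccl20, Ccr8, Cxcl3 and Cxcr1 were at 0 in all 5 CON libraries. Ccl20, the ligand of Ccr6, had 3, 0, 5, 19 and 0 counts in ZXD and 0, 8, 2, 0 and 18 counts in HFD. Ccl25, the gut-homing ligand of Ccr9, had 20, 12, 8, 8 and 5 counts in ZXD, 9, 6, 29, 9 and 9 counts in HFD and 1, 1, 4, 0 and 3 counts in CON, so every fed library held more counts than any CON library, although in CPM ZXD 5 (0.362) lay below CON 3 (0.380). Ccr6 summed to 41 counts in ZXD, 21 in HFD and 12 in CON, Ccr9 to 29 in ZXD, 19 in HFD and 10 in CON, and Ccr10 to 17 in ZXD, 19 in HFD and 26 in CON. Ccr8 summed to 10 counts in ZXD and 12 in HFD, and its ligand Ccl1 to 11 in ZXD, 12 in HFD and 1 in CON. Ccr1l1 held 15 counts in ZXD, 14 of them in ZXD 4, against 2 in HFD and 1 in CON. Ccl11, Ccl28, Ccr3 and Cxcl17 summed to at most 9 counts in any group. No difference between groups was tested at these counts.

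**Figure D4:**
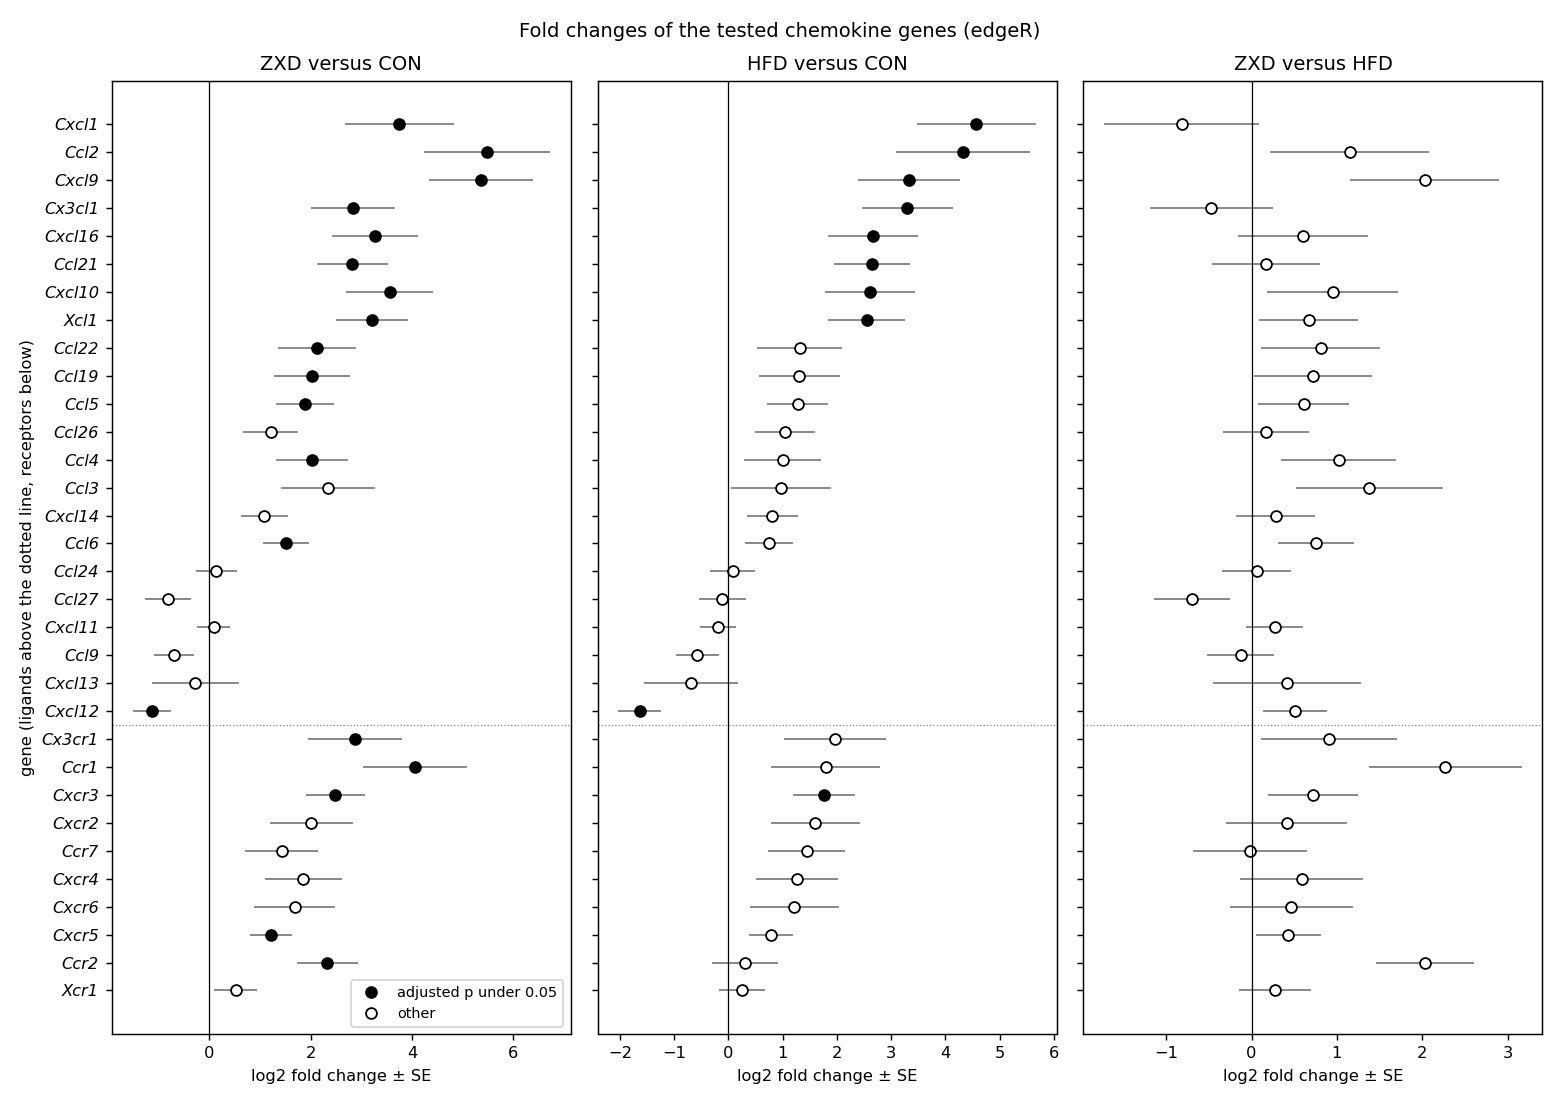
Log2 fold change with its standard error for the tested chemokine and receptor genes described here in ZXD versus CON, HFD versus CON and ZXD versus HFD; filled points have an edgeR adjusted p under 0.05. Most points lie right of 0 in each panel, Cxcl12 lies left of 0 in both comparisons with CON, and no point is filled in ZXD versus HFD.

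By class, 13 of 22 tested ligands and 6 of 11 receptors rose in ZXD versus CON, 59.1% and 54.5% against 17.9% of all tested genes. In HFD versus CON 8 of 22 ligands and 1 of 11 receptors rose, 36.4% and 9.09%, and the receptor share lay near the 10.0% of all tested genes. Ccr1, Ccr2, Cx3cr1, Cxcr3 and Cxcr5 were among the receptors that rose. Groups did not overlap for 7 higher and 1 lower genes in HFD versus CON, where the background was 6.59% higher and 8.46% lower. In ZXD versus CON they did not overlap for 5 higher and 0 lower genes, with a background of 8.20% higher and 9.79% lower.

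Between ZXD and HFD, where both groups ate the feed and the decoction took the place of saline, edgeR called 0 of the 33 genes in either direction, and 4 had an unadjusted p under 0.05, all higher in ZXD. The background for an unadjusted p under 0.05 was 9.84% higher and 6.62% lower. DESeq2 called 2 of the 33 higher, Ccr2 among them, beside a background of 1.64% higher. Among the 3 smallest p-values of the 33 by edgeR were those of Ccr2 (log2 fold change 2.03, SE 0.57, adjusted p = 0.155) and Ccr1 (log2 fold change 2.27, SE 0.89, adjusted p = 0.230). Without ZXD 4 the log2 fold changes became 1.19 for Ccr2 and 0.49 for Ccr1. No gene of the 33 had groups that did not overlap, where the background was 2.14% higher and 1.53% lower.

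**Figure D5:**
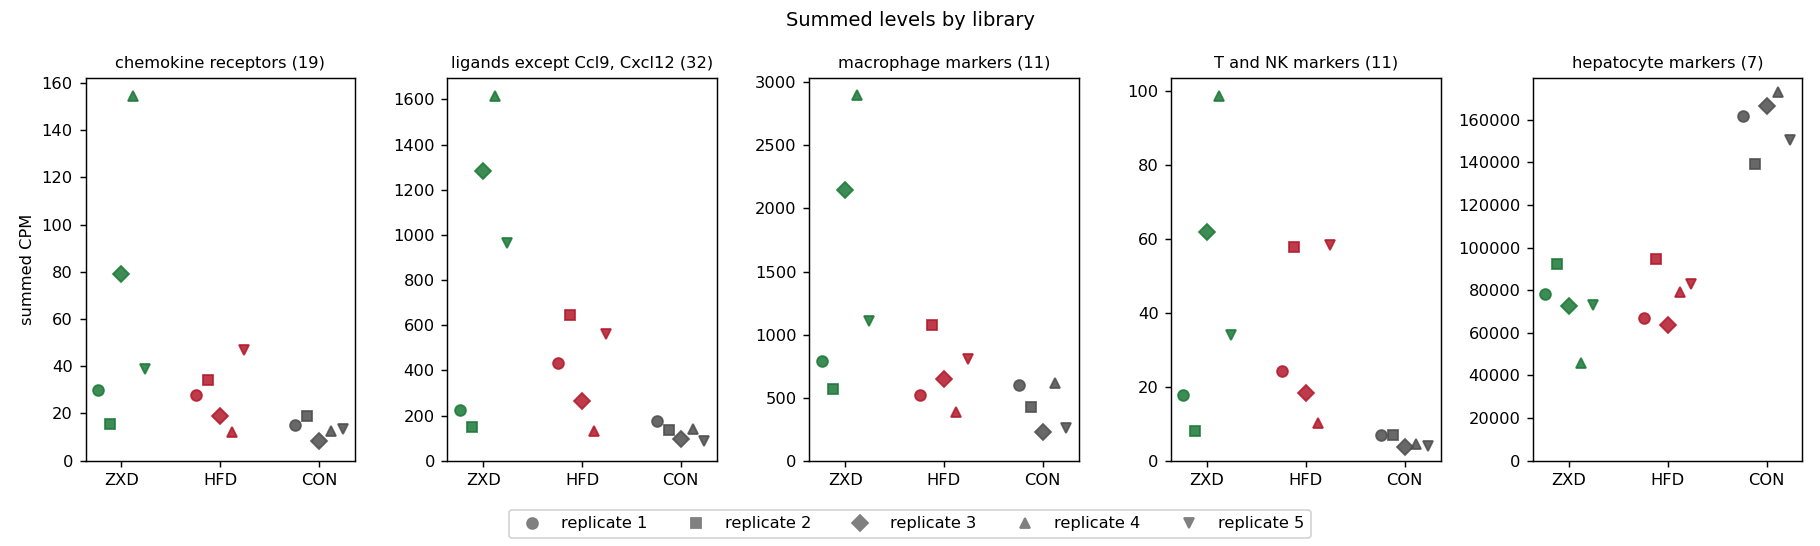
Summed CPM of chemokine receptors, of ligands other than Ccl9 and Cxcl12, and of macrophage, T and NK cell, and hepatocyte markers in each library, with ZXD, HFD and CON from left to right. ZXD 3 and ZXD 4 are the highest 2 of the ZXD libraries for receptors, ligands, macrophage markers and T and NK cell markers, and CON is the highest group for hepatocyte markers.

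ZXD 3 and ZXD 4 were the highest ZXD libraries for summed receptors and for summed leukocyte markers. The 19 receptors summed to 29.8, 15.4, 79.04, 155 and 38.9 CPM in ZXD, 27.8, 34.3, 19.1, 12.3 and 47.05 CPM in HFD and 14.98, 18.7, 8.17, 12.5 and 13.3 CPM in CON. Macrophage markers in the same libraries summed to 789.9, 571, 2143, 2898 and 1107 CPM in ZXD, 523, 1077, 651, 386 and 807 CPM in HFD and 596, 427, 230.2, 617 and 257 CPM in CON. Lyz2 had the highest ZXD mean of these markers, at 621 CPM, against 134 CPM in HFD and 20.1 CPM in CON. Clec4f averaged 166 CPM in ZXD, 140 CPM in HFD and 147 CPM in CON. Vsig4 alone had a lower mean in ZXD (32.5 CPM) than in CON (40.4 CPM). T and NK cell markers summed to 17.8, 8.11, 61.9, 98.7 and 33.99 CPM in ZXD, 24.3, 57.9, 18.4, 10.1 and 58.3 CPM in HFD and 7.09, 6.96, 3.61, 4.43 and 4.003 CPM in CON. The lowest ZXD library for receptors, ZXD 2, was also the lowest for both marker lists.

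Macrophage markers rose in 7 of 11 tested genes in ZXD versus CON and in 4 of 11 in HFD versus CON by edgeR, where 17.9% and 10.0% of all tested genes rose, and none was called lower. The resident macrophage genes Vsig4 and Cd163 had log2 fold changes of -1.09 and -0.69 in HFD versus CON (adjusted p = 0.0605 and 0.249), and 1 macrophage marker was called lower there with DESeq2 and without CON 3 or HFD 1. T and NK cell markers rose in 9 of 9 in ZXD versus CON and in 8 of 9 in HFD versus CON. Leaving out CON 3, CON 4 or HFD 2 brought the HFD count for macrophage markers to 1, and leaving out CON 2, CON 5 or HFD 5 brought it to 2. It was 7 with library totals and 1 with limma voom. For T and NK cell markers in HFD versus CON, leaving out CON 5 or HFD 5 gave 3 and leaving out CON 3, CON 4 or HFD 2 gave 4. Limma voom gave 1 and a minimum count of 30 gave 3. In ZXD versus CON their count was 3 with limma voom, 4 at a minimum count of 30 and 5 with the compared groups alone. Cd8b, Cd5 and Cd3g averaged 0, 0.178 and 0.286 CPM in CON, and the filter passes a gene that is high in just 1 group.

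Genes that act around chemokines were examined as 4 lists. Of 12 tested inducing cytokines and NF-kB genes, 11 rose in ZXD versus CON and 7 in HFD versus CON by edgeR, with none lower, where 17.9% and 10.0% of all tested genes rose. The median log2 fold changes were 2.03 and 1.71. Tnf, a cytokine that induces many chemokines, rose in ZXD versus CON (log2 fold change 5.09, adjusted p = 0.00493 by edgeR) and in HFD versus CON (log2 fold change 4.10, adjusted p = 0.0201). Irf1, a transcription factor induced by interferon gamma, rose in ZXD versus CON (log2 fold change 3.32, adjusted p = 0.00252) and in HFD versus CON (log2 fold change 2.66, adjusted p = 0.00982). The ZXD count was 6 without ZXD 3 and 7 without ZXD 4 or CON 3, and the HFD count was 2 without HFD 5 and 4 without HFD 2. With limma voom they were 5 and 2, and the HFD count was 11 with library totals. Ifng itself was at 0 in all CON libraries and was given no fold.

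Of 26 receptor signalling genes, 20 rose in ZXD versus CON and 5 in HFD versus CON by edgeR, where 17.9% and 10.0% of all tested genes rose. The inhibitory G protein subunit Gnai2 rose in ZXD versus CON (log2 fold change 1.37, adjusted p = 0.00324 by edgeR) and in HFD versus CON (log2 fold change 1.03, adjusted p = 0.0187). The leukocyte kinase Ptk2b rose in ZXD versus CON (log2 fold change 3.16, adjusted p = 0.00464) and in HFD versus CON (log2 fold change 2.37, adjusted p = 0.0244). Pik3cd, a leukocyte lipid kinase, rose in ZXD versus CON (log2 fold change 2.38, adjusted p = 0.00350) and in HFD versus CON (log2 fold change 1.503, adjusted p = 0.0397). The HFD count was 1 without HFD 2 or HFD 5, 2 without CON 3 or CON 5, 3 without CON 1, CON 2, CON 4 or ZXD 5, 8 without ZXD 4, 9 without HFD 4 and 11 without ZXD 2. It was also 21 with library totals, 14 with the compared groups fitted alone, 12 with DESeq2 and 2 with limma voom, which called 13 in ZXD versus CON. Of 17 tested adhesion genes, 13 rose and 2 fell in ZXD versus CON, and 5 rose and 1 fell in HFD versus CON, against the same background of 17.9% higher and 14.8% lower and of 10.0% higher and 10.9% lower. Icam1, an endothelial ligand of leukocyte integrins, rose in ZXD versus CON (log2 fold change 1.77, adjusted p = 0.00616 by edgeR) and in HFD versus CON (log2 fold change 1.61, adjusted p = 0.0146). The junction gene Jam3 fell in ZXD versus CON (log2 fold change -0.87, adjusted p = 0.00627) and in HFD versus CON (log2 fold change -0.71, adjusted p = 0.0252). Leaving out HFD 2, HFD 5 or any CON library but CON 1 brought the higher HFD count to 2, and it was 3 without CON 1, HFD 1 or ZXD 3 and 8 without ZXD 2, and the lower one was 0 without CON 3 or CON 4. Scaled by library totals in place of TMM, adhesion genes had 0 lower calls in either comparison and 12 higher ones in HFD versus CON. DESeq2 and the compared groups fitted alone each gave 9 higher there, and limma voom gave 1.

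Of 7 tested other ligands and atypical receptors, 2 rose and 1 fell in ZXD versus CON, and 0 were called in HFD versus CON by edgeR. The background in ZXD versus CON was 17.9% higher and 14.8% lower over all tested genes. In HFD versus CON, 1 higher and 1 lower had an unadjusted p under 0.05, and DESeq2 called 1 higher and 1 lower. Over all 13163 genes DESeq2 called 1912 higher and 1799 lower in HFD versus CON, and the unadjusted share over all genes was not counted for it. The ZXD calls were Cmklr1, the chemerin receptor (log2 fold change 2.30, adjusted p = 0.00925 by edgeR), Ccrl2 (log2 fold change 2.75, adjusted p = 0.0218) and Rarres2, which encodes chemerin (log2 fold change -0.53, adjusted p = 0.0435). The higher count was 1 without CON 2, CON 5, ZXD 3 or ZXD 4, and the lower count was 0 without any 1 of the CON libraries, HFD 2, ZXD 1, ZXD 3 or ZXD 4 and 2 without ZXD 2. The lower count was also 0 with library totals and 2 with DESeq2 or limma voom. Between ZXD and HFD, edgeR called 0 genes of the 4 lists, and DESeq2 called 1 higher receptor signalling gene and 1 higher and 1 lower adhesion gene. Over all 13163 genes tested, DESeq2 called 216 higher and 132 lower in that comparison. An unadjusted p under 0.05 was reached there by 8 higher signalling genes, 8 higher and 1 lower adhesion genes and 1 lower gene of the other ligands and atypical receptors. The background for this was 9.84% higher and 6.62% lower.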

How the data were processed

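Liver RNA was sequenced in 15 libraries, 5 for each of ZXD, HFD and CON, taken from the sample titles. The authors deposited 1 table of whole-number read counts and FPKM values, named as such per the file headers, for each gene in each library. edgeR appears in the submitters' processing notes. Aligner, counter, genome build and strand use: not given in the sources used here. All FPKM values above 0 lay within 0.01% of the deposited count per gene length and library total, and were used only to compare levels between genes. A simvastatin group was not analysed here.

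Counts were scaled by TMM and filtered by filterByExpr (minimum count 10, minimum total 15), and 13163 of 21576 genes were tested. The kept genes held at least 99.8% of each library's counts. One edgeR 4.0.16 quasi-likelihood fit (R 4.3.3) over all 15 libraries with group as the sole term (12 residual degrees of freedom) gave log2 fold changes and Benjamini-Hochberg adjusted p-values over all genes tested. Standard errors are the log2 fold change over the square root of F. The procedure was tested on simulated data with 200 changed genes. It recovered 42.6% of 2-fold changes in ZXD versus CON, 39.7% in ZXD versus HFD and 38.2% in HFD versus CON. For 4-fold changes the shares were 78.8%, 80.3% and 80.3% in the same order. Group values are means ± SD of CPM on TMM-scaled totals, and a level of 3 counts covers counting error only. Promoters and gene neighbours come from RefSeq tables of GRCr8; 53 of 53 symbols matched the gene table. Overlaps between genes come from the deposited table's own coordinates, whose genome build is not given.

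Fold changes with tests are given for genes called in a comparison, for the 3 smallest p-values where fewer than 3 were called, and for Ccl2, Cxcl1, Cxcl10 and Cxcl12 throughout. Adjusted p-values of genes with no call are also given, chosen after their values were seen. Members, lists and alternatives were chosen with earlier results of these data known. The alternatives were RLE size factors, library totals, no filter, a minimum count of 30, DESeq2 1.42.0, limma 3.58.1 voom with and without quality weights, the compared groups alone, a replicate block and leaving out each library. One of the genes is not reported here by name and is left out of the figures; it stays in the counts and sums.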

Additional observations from a re-analysis of the deposited data

Results flagged for a closer look

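Outliers were looked for among the 5 libraries of each group, where chance marks about 1 group in 20, and 1 of 57 groups was marked. Cxcr5 in HFD 3 was 0.443 CPM, the lowest HFD library, with the other 4 between 0.977 and 1.29 CPM.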

How the results depend on the processing

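Library totals without TMM gave a median log2 fold change over all tested genes of 0.46 in ZXD versus CON (0.03 with TMM) and 0.44 in HFD versus CON (0.02 with TMM). The count of chemokine genes called higher in HFD versus CON, 9 in edgeR, was 14 with library totals, 0 with limma voom, 4 with voom and quality weights and 4 to 9 leaving out 1 library. The count called lower there was 1 in every alternative. In ZXD versus HFD, DESeq2 called 2 higher, and every other alternative called 0 higher and 0 lower. In ZXD versus CON, the 19 higher calls were 12 at a minimum count of 30, which tested 20 of the genes, 26 with library totals, 5 with limma voom and 11 to 24 leaving out 1 library. The 1 lower call there, Cxcl12, was 0 with library totals or limma voom, and the count was 0 to 1 leaving out 1 library. With quality weights the count was 2, and Cxcl12 was not among them. In ZXD versus HFD the log2 fold change of Ccl2 ranged from -0.35 (without ZXD 4) to 1.88 over the fits leaving out 1 library, and that of Cxcl1 from -1.74 to 0.15 (without HFD 5). Unless the alternative itself shows it, the cause of these shifts was not tested. Replicate numbers were not used to pair the libraries in the main fit. Deviations of same-numbered libraries correlated between -0.55 and 0.26, and 4 of 15 libraries correlated best with their own number. Whether same-numbered libraries shared a batch cannot be told from these values. A replicate block gave 1 higher call in HFD versus CON, and 9 higher and 0 lower in ZXD versus CON. With the block, receptor signalling and adhesion genes each had 1 higher call in HFD versus CON, macrophage, T and NK cell markers and inducing cytokines 2 each, and inducing cytokines 6 in ZXD versus CON. Counting depth limits the genes near 3 counts per library, among them Xcl1, Ccl2 and Cx3cr1 in CON.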
